A study of Mus musculus with 12 samples.

Results

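Rab GTPases are the small GTP-binding proteins that give each membrane compartment its identity. In the GTP-bound state a Rab recruits effectors such as motors, tethers and coat adaptors to its membrane. Exchange factors load it with GTP, GTPase-activating proteins switch it off, and a dissociation inhibitor extracts the prenylated protein for reuse. In sensory neurons Rabs direct secretory vesicles to the terminals, move membrane into growing axons and carry neurotrophin receptors back to the cell body.

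The rows examined are the genes of the deposited table with a mouse symbol of Rab followed by a number and an optional letter. Pseudogenes and Rab-interacting proteins were left out. This gave 50 of 15391 genes, whereas 59 such symbols stand in the table of gene names, and 35 of the 50 had enough counts for the comparisons. The RNA came from cultured adult mouse dorsal root ganglion neurons of the genotype RPL22HA+/+;Advillin-Cre+, taken from mice preconditioned by a sciatic nerve injury. Advillin-Cre switches on the HA-tagged ribosomal protein Rpl22 (RiboTag) in sensory neurons, so that an anti-HA immunoprecipitate (IP) collects their ribosomes and bound mRNA. Cultures received an adeno-associated virus, either a control (worded AAV-shControl for input and AAV-Control for IP) or AAV-shLarp1, a short hairpin RNA against the RNA-binding protein Larp1. All groups therefore share the nerve injury, the RiboTag allele and Cre, and no uninjured or uninfected group was analysed here. The labels speak of cultured neurons, whereas their extraction text speaks of freshly collected ganglia.

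The 4 groups, IP and input RNA with either virus, had 3 columns of counts each. IP columns held 3126591 to 3177552 counts and input columns 564095 to 760140. The 3 columns of a group differed in total by 0.0344% to 0.0939%, and 6.98% to 7.62% of genes with at least 30 counts differed between columns by a chi-square test at 0.05, close to the 5% of pure sampling. Among the Rabs with at least 30 counts, such a difference was found for 2 of 39 in control IP (Rab2b and Rab4b). In shLarp1 IP it was found for 2 of 41 (Rab1a and Rab37). The labels do not say that columns are separate cultures, so the columns of a group were summed and counted as 1 sample. Every value therefore has n = 1 per group, its 95% interval covers counting error only, and no difference could be checked against replicates. Columns said below to be separate or not to overlap were compared after division by their totals. This describes parts of 1 sample, is no test, and is given without its share over all genes. Rab11b, for example, had separate IP columns at a scaled log2 ratio of 0.02. To be called, a gene needed an interval that lay entirely past 1.5-fold. The target Larp1 had 442 counts in control IP and 149 in shLarp1 IP (log2 -1.72). All 17 markers of sensory neurons in the list were present, and 17 of 17 had a log2 ratio of IP over input above 0 with the control virus (median 1.99). In bulk RNA, fewer cells of a type and less RNA per cell cannot be told apart.

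Larp1 binds mRNAs that begin with a C followed by an unbroken run of pyrimidines (the TOP motif), so the annotated first bases of the Rab transcripts are shown for the members with such a start and for those whose counts recur below. RefSeq starts (build GRCm38.p6) were found for 42 of the 50 members. A start was counted as TOP-like where the first base was C and at least 5 pyrimidines (C or T) ran from it on the transcribed strand. Rab33a, Rab33b and Rab9 met this, 3 of 42 members (7.14%), against 3.01% of all 27025 genes with a start and 22.4% of 58 genes with ribosomal protein symbols. Ribosomal protein genes are the class best known for this motif, and the annotated starts were not checked against measured ones. Each line gives 10 bases before the annotated start and 20 from it, with the pyrimidines that run from the start in capitals.
Rab33b (chr3:51483956-51483985, plus strand): tctctccccgCCCCCgggggctgcgcagct
Rab33a (chrX:48519275-48519304, plus strand): cagaaggagaCCTCTCaaggctggcccagt
Rab9 (chrX:166479848-166479877, minus strand): cgacctacagCTCCTggcctggtgctaccg
Rab11a (chr9:64737737-64737766, minus strand): gaagtgacgcatacagggcggggctcgtca
Rab24 (chr13:55321961-55321990, minus strand): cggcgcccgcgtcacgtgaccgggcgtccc
Rab11a and Rab24 begin with a purine at the annotated base. Rab33a and Rab33b, which are close paralogues, both begin with a C in a run of pyrimidines, all C in Rab33b and mixed in Rab33a. A match is a description of these letters and not a binding site.

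The first comparison asked how Rab mRNAs in the ribosome IP differed after Larp1 knockdown. No Rab passed the 1.5-fold rule in either direction (0 of 35), against 0.719% of 8766 genes called higher and 4.4% called lower. Within that limit the members lay slightly high. Their median log2 ratio was 0.16 and that of all tested genes -0.08. A whole interval above the median of all genes was found for 14 of 35 members, against 20.7% of all tested genes, and a whole interval below it for 0 of 35, against 23.8%. Read against the 6807 genes that had input counts and a mean IP to input log2 ratio of at least -2, a reference chosen with earlier results known, the member median was 0.15 and the reference median -0.01. There 9 of 34 intervals lay above (17.3% of the reference genes) and 1 of 34, that of Rab2a, below (18%). The members had more IP counts than the typical gene (median 416 against 299 over both viruses), which narrows their intervals. Summed over all 50 members, Rab counts made up 0.112% of control IP counts (exact interval 0.110% to 0.114%) and 0.131% of shLarp1 IP counts (0.128% to 0.133%). These are shares of the raw totals. With the scaling used for the ratios, the summed counts had a log2 ratio of 0.09 (0.05 to 0.13). In the same columns the 17 sensory neuron markers summed to 9623 to 9719 CPM (counts scaled to library size) in control IP and 11009 to 11127 in shLarp1 IP, and the 10 fibroblast markers to 626 to 629 and 954 to 971. The 15 glial markers summed to 833 to 842 and 870 to 877, the 8 macrophage markers found to 115 to 122 and 123 to 132, and the 8 endothelial and mural markers to 121 to 143 and 116 to 135. The part of these differences in the Rab values was not tested.

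**Figure D1:**
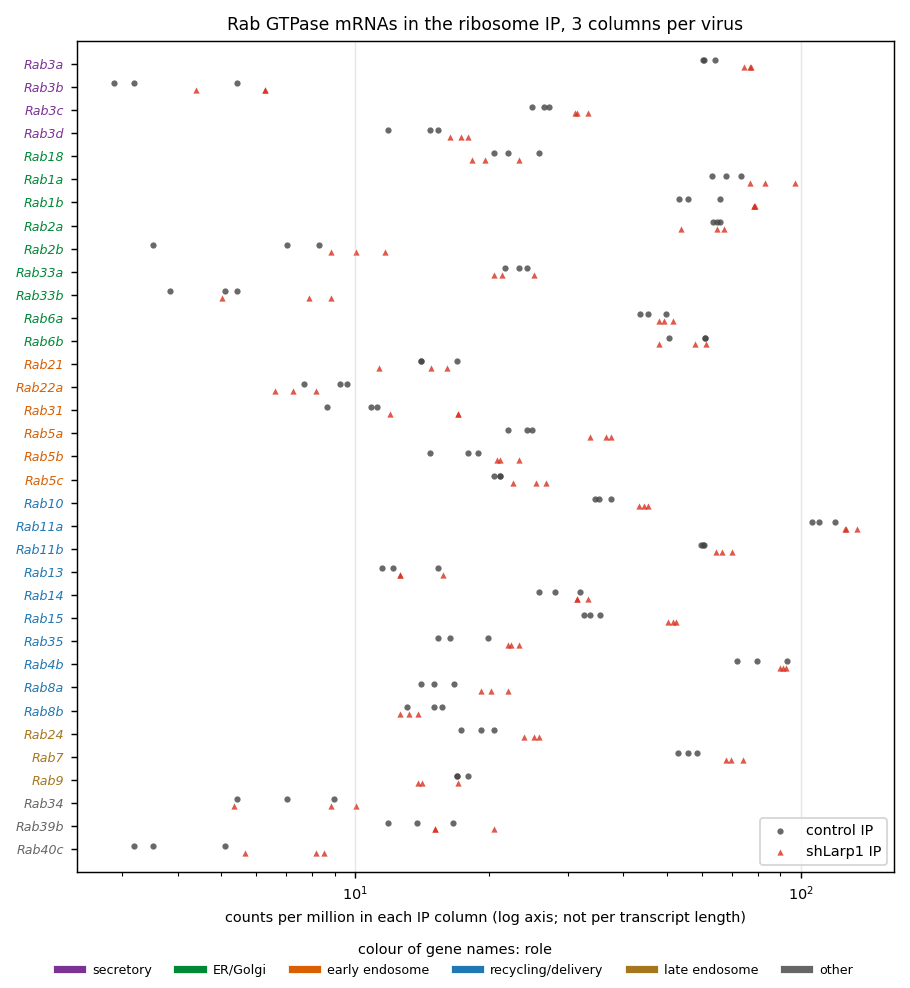
Scaled counts (CPM) in each of the 3 columns of control IP (circles) and shLarp1 IP (triangles) for the 35 Rab genes past the count filter, on a log axis, with gene names coloured by role. Rab15, Rab5a, Rab7 and Rab10 are among the genes whose shLarp1 columns all lie to the right of the control columns, while Rab2a, Rab6b and Rab33a overlap.

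Among the Rabs of regulated secretion, Rab3a, the Rab of synaptic vesicles that acts before exocytosis, had 189, 190 and 201 counts in the control IP columns and 245, 244 and 237 in shLarp1. The columns did not overlap, and the scaled difference was small (log2 0.17, 0.01 to 0.33). Its relatives Rab3c (246 and 305 summed counts, 0.16, -0.09 to 0.41), Rab3d (131 and 164, 0.17, -0.17 to 0.51) and Rab3b (36 and 54, 0.43, -0.20 to 1.08) had values above 0 with intervals that included 0. The secretory granule Rabs Rab27a (28 and 16 counts), Rab27b (2 and 11) and Rab37 (43 and 33) had too few counts for the comparison. Summed over its 7 members, 4 of them tested, this class had 1066 and 1309 IP counts (0.14, 0.03 to 0.26). Early endosome Rabs summed to 0.18 (0.06 to 0.31) and recycling and delivery Rabs to 0.10 (0.04 to 0.16). For ER and Golgi (0.04), late endosome (0.11) and other Rabs (0.20) the interval included 0. Rabs of lysosome-related organelles and LRRK2 substrates, with 0 tested members, had 80 and 56 counts (-0.67, -1.19 to -0.16).

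The ER and Golgi Rabs did not share a direction. Rab1a and Rab1b, which drive transport from the endoplasmic reticulum to the Golgi, lay high: Rab1b had 175, 206 and 167 counts against 249, 250 and 250 (log2 0.30, 0.14 to 0.46), and Rab1a went from 640 to 816 (0.20, 0.05 to 0.35). The columns of both genes were separate. Rab2a, which acts between the Golgi and the endoplasmic reticulum and in granule formation, had 608 and 591 counts (-0.19, -0.36 to -0.03), whereas its paralogue Rab2b had 59 and 97 (0.57, 0.08 to 1.06). The control columns of Rab2b held 11, 26 and 22 counts. They were among those that differed by the chi-square test, at a rate among the Rabs near that of sampling. Rab6a (434 and 474) and its neuronal paralogue Rab6b (540 and 532), Rabs of retrograde Golgi traffic, had -0.03 and -0.17. With total counts Rab6a had 0.10 in place of -0.03, and the median of all genes moved from -0.08 to 0.05. Rab18, found on the endoplasmic reticulum and lipid droplets, had 214 and 194 (-0.29, -0.58 to -0.01). The class had a median of -0.03 over 9 tested members, with 4 values above 0 and 5 below.

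Early endosome Rabs govern fusion of endocytic vesicles, and Rab5 is a component of neurotrophin signalling endosomes. Rab5a had 69, 76 and 78 counts in control IP and 119, 116 and 107 in shLarp1 IP, with all shLarp1 columns above all control columns (log2 0.46, 0.22 to 0.71). Rab5b (161 and 207) and Rab5c (196 and 238) had 0.21 and 0.13, with intervals that included 0. Rab31 had 96 and 146 counts (0.45, 0.07 to 0.84), while Rab21 (141 and 134) and Rab22a (83 and 70) had -0.23 and -0.40, again with 0 inside the interval.

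Recycling and delivery Rabs return receptors to the surface and add membrane to axons. Rab15, which acts in receptor recycling, had 105, 102 and 111 counts in control IP and 164, 167 and 160 in shLarp1. These columns did not overlap, and the log2 ratio of 0.47 (0.27 to 0.68) was the furthest from 0 among members with at least 200 control IP counts. Rab11a, the main Rab of recycling endosomes, had 343, 331 and 373 against 425, 398 and 402 counts (0.07, -0.05 to 0.19), and Rab11b 566 and 638 (0.02). Rab4b (765 and 870) had 0.03, Rab10 (335 and 423), a Rab of axonal membrane addition, 0.18, and Rab14 (269 and 306) 0.03. Rab8a (143 and 195), of Golgi to surface transport, had 0.30 (-0.02 to 0.62), and its paralogue Rab8b (137 and 126) -0.27 (-0.63 to 0.09). Rab35 (161 and 215), of fast recycling, had 0.27, and Rab13 (122 and 130) -0.06.

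Among the Rabs of late endosomes, Rab7, which matures endosomes towards lysosomes and drives retrograde carriers, had 183, 175 and 166 counts in control IP and 216, 235 and 222 in shLarp1 (log2 0.21, 0.04 to 0.38), with separate columns. Rab24, linked to autophagy, had 178 and 238 (0.27, -0.02 to 0.56). Rab9, which returns cargo from late endosomes to the Golgi, had 162 and 143 (-0.33, -0.67 to 0.00). Of the remaining tested members, Rab40c, part of a ubiquitin ligase, had 37 and 71 counts and the highest value (0.79, 0.20 to 1.40). Rab39b and Rab34 had 0.13 and 0.05.

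Of the 15 members below the count filter, Rab43 and Rab7b had an interval beyond 1.5-fold when the filter was left off. Rab43, a Golgi Rab, had 0, 6 and 3 counts in the control IP columns and 11, 13 and 9 in shLarp1 (log2 1.72, 0.63 to 2.97). Rab7b, a late endosome Rab, had 7, 6 and 5 against 2, 0 and 1 (-2.74, -5.14 to -0.96). Both rest on few reads, and neither entered the comparison. Rab12, a substrate of the kinase LRRK2, had 45 and 23 counts (-1.12, -1.91 to -0.37), and Rab28 43 and 35. The melanosome Rabs Rab32 (8 and 6) and Rab38 (11 and 7) and the Hedgehog regulator Rab23 (17 and 32) were barely covered.

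**Figure D2:**
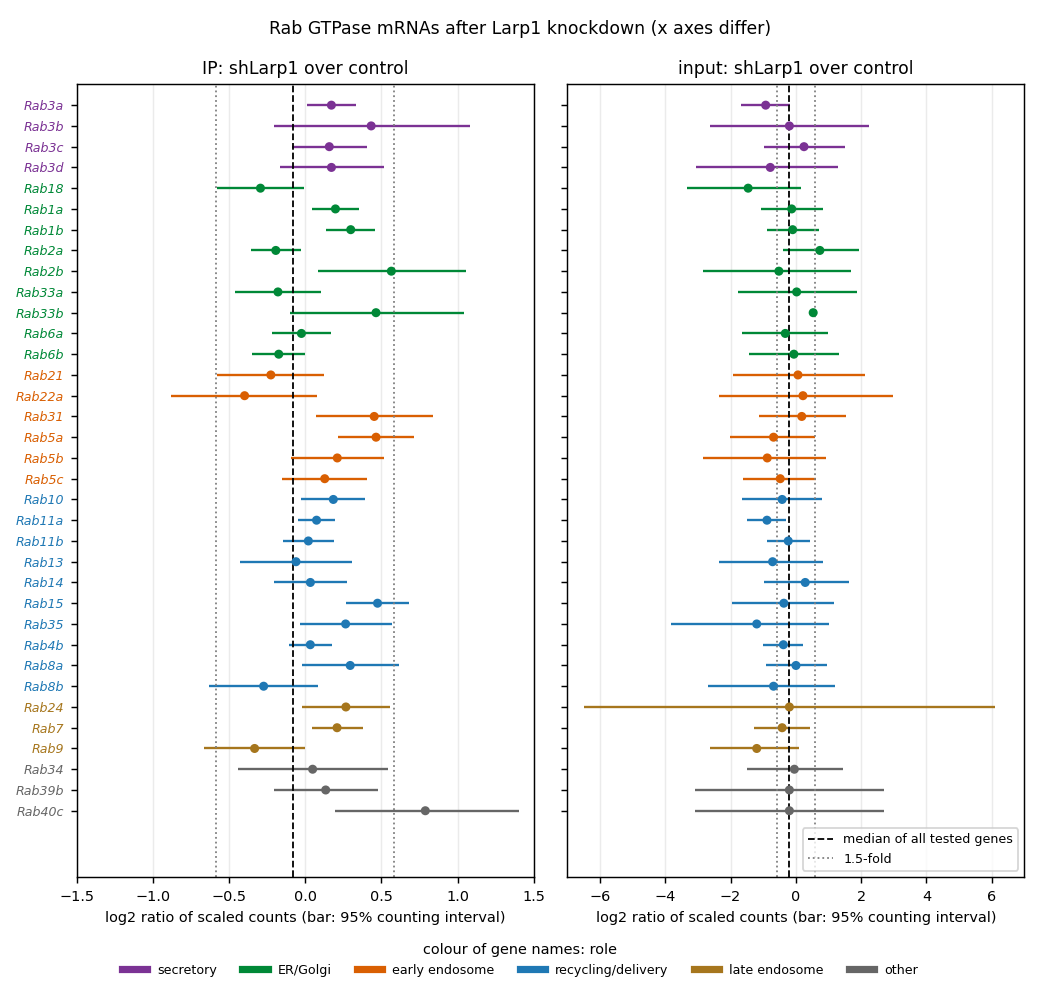
Log2 ratio of scaled counts, shLarp1 over control, for the 35 tested Rab genes in the IP (left) and in input (right, wider axis), with bars for the 95% counting interval, a dashed line at the median of all tested genes and dotted lines at 1.5-fold. In the IP no bar lies wholly beyond a dotted line, and in input most bars are several log2 units wide because few reads were counted.

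The second comparison concerned the input RNA. None of the 35 tested Rabs passed the 1.5-fold rule there (0.171% of 7588 genes higher and 1.01% lower). The median was -0.23, while that of all tested genes was -0.20, the value that equal counts in both inputs take under this scaling. Depth limited this comparison: the median of the 50 Rabs was 7 counts in control input and 5 in shLarp1 input. An interval wholly above the median of all genes was found for 1 of 35 members, Rab33b (13% of all genes), and wholly below it for 1, Rab11a (4.67%). Rab33b, a Golgi Rab that also acts in autophagosome formation, had 825, 874 and 807 counts in the control input columns and 1328, 1429 and 1396 in shLarp1 input. All shLarp1 columns lay above all control columns, and the scaled difference was 1.44-fold (log2 0.53, 0.46 to 0.60), which straddled the 1.5-fold limit. With DESeq2 size factors it was 0.74 and with upper-quartile factors 0.68, both past the limit, and with total counts 0.30. Leaving out any 1 input column also moved it past the limit. Rab33b supplied 82.2% of all Rab counts in control input and 89.6% in shLarp1 input.

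Rab33b was then left out, an exclusion chosen after its counts were seen. The other 49 members held 541 counts in control input (0.0320% of 1693039) and 484 in shLarp1 input (0.0212% of 2279226). These shares are of the raw totals, and the log2 ratio of the scaled sums was -0.36 (-0.54 to -0.18). Rab11a had 23, 17 and 26 counts in control input and 18, 10 and 13 in shLarp1 (-0.88, -1.48 to -0.30), and Rab3a 18, 12 and 13 against 7, 11 and 8 (-0.92, -1.68 to -0.19). When each column's count was divided by its total, all shLarp1 columns of both genes were below all control columns. Rab18 (12 and 5 counts, -1.46) and Rab9 (16 and 8, -1.20) had intervals that included 0. At the other end, Rab2a had 11 and 21 counts (0.74, -0.38 to 1.94). Beside this, the summed level of the 17 sensory neuron markers was 1953 to 2081 CPM in the control input columns and 1062 to 1101 in shLarp1 input. Their median log2 ratio was -0.20, equal to that of all tested genes. Of the 17, 5 lay above 0 and 12 below, and only Uchl1 was called (lower). The 15 glial markers summed to 402 to 452 and 363 to 403, the 10 fibroblast markers to 571 to 631 and 516 to 570, the 8 macrophage markers found to 112 to 119 and 64.5 to 65.8, and the 8 endothelial and mural markers to 101 to 110 and 46.1 to 60.6. The part of these differences in the input values of the Rabs was not tested.

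The third comparison set the IP against the input within each virus. Neuronal markers lay high in this ratio, with medians of 1.99 (control) and 2.04 (shLarp1), and the medians of Schwann cell and satellite glia markers lay near 0 (0.04 and 0.21). Single glial markers ran from -1.52 to 2.16 with the control virus. Medians were -0.17 and 0.13 for fibroblast markers and -1.04 and -0.17 for macrophage markers. The 3 tested endothelial and mural markers had 0.42 and 1.93. The Rabs had medians of 0.85 with the control virus and 1.26 with shLarp1, while all genes had 0.40 and 0.67. With the control virus 7 of 35 members were called higher, against 12.8% of all tested genes, and 1 lower, against 14.4%. With shLarp1 16 of 35 (45.7%) were called higher, against 16.8%, and 1 lower, against 15.1%. Intervals wholly above the median of all genes were found for 9 of 35 members with the control virus (17.1% of all genes) and 15 of 35 with shLarp1 (14.6%). Intervals wholly below it were found for Rab33b and Rab8a with either virus, against 29.4% and 29.5% of all genes. Both ratios within a virus and their difference depend on few input reads. The level of the ratio moved with the scaling: total counts gave medians of 1.82 and 2.59, upper-quartile factors 0.37 and 0.76, and the distance of the members from the median of all genes remained the same by construction.

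Of the 7 members called higher with the control virus, 5 were ER and Golgi Rabs, a class with 9 of the 35 tested members. At a 2-fold limit or with upper-quartile factors, only Rab2a, Rab6b and Rab24 stayed higher, against 457 and 394 of all tested genes. Rab6b had 540 IP and 10 input counts (log2 2.32, 1.43 to 3.39), Rab2a 608 and 11 (2.35), Rab6a 434 and 12 (1.74), Rab33a 217 and 6 (1.74) and Rab1a 640 and 20 (1.56). The other two were Rab24, with 178 IP counts and 1 input count (4.04, 1.54 to 9.35), and Rab15 (318 and 9, 1.71). Of these, 6 were called with shLarp1 too, Rab33a being the exception (213 and 7, 1.54, 0.47 to 2.87). A further 10 members were called with shLarp1 alone: Rab35 (2.77), Rab39b (2.36), Rab5b (1.98), Rab18 (1.89), Rab10 (1.75), Rab5a (1.71), Rab11a (1.51), Rab7 (1.42), Rab3a (1.41) and Rab1b (749 IP and 30 input counts). Whether the viruses differ in these is the interaction below. When the third control input column was left out, the members called with the control virus went from 8 to 5, and those no longer called were Rab15, Rab1a and Rab33a. Over all genes the calls then went from 970 higher and 1095 lower to 750 and 993. Rab8a (143 and 20, -0.60, -1.28 to 0.16) and Rab34 (67 and 9, -0.54) lay at the low end after Rab33b.

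Rab33b was the reverse of its paralogue. It had 12, 17 and 16 counts in control IP and 25, 28 and 16 in shLarp1 IP, against the input counts given above, so that its log2 ratio of IP over input was -9.24 with the control virus (-9.69 to -8.81) and -9.30 with shLarp1 (-9.67 to -8.96). With 0.5 counts added to every group sum, the mean over both viruses was -9.26, which ranked 11 from the lowest among 7588 genes. It was the only 1 of the 35 tested members with a mean below -2. In contrast Rab33a, which carries post-Golgi vesicles into growing axons in rat neurons, had 76, 73 and 68 counts in control IP and 3, 1 and 2 in control input. RefSeq lists no other gene that overlaps Rab33b. Gene counts do not show which part of the gene the input reads cover, and this was not analysed here.

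**Figure D3:**
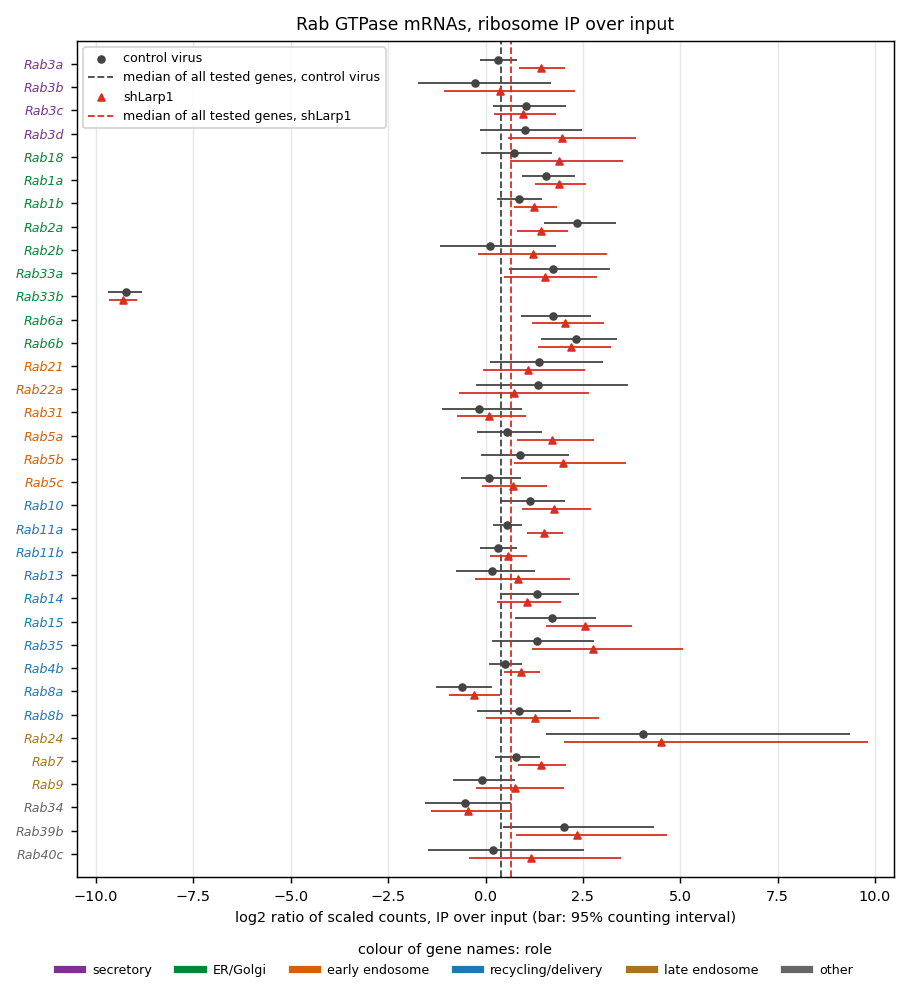
Log2 ratio of scaled counts, IP over input, for the 35 tested Rab genes with the control virus (circles) and shLarp1 (triangles), with bars for the 95% counting interval and dashed lines at the medians of all tested genes. Rab33b lies near -9 with both viruses, and the other members lie between -0.60 and 4.50.

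**Figure D4:**
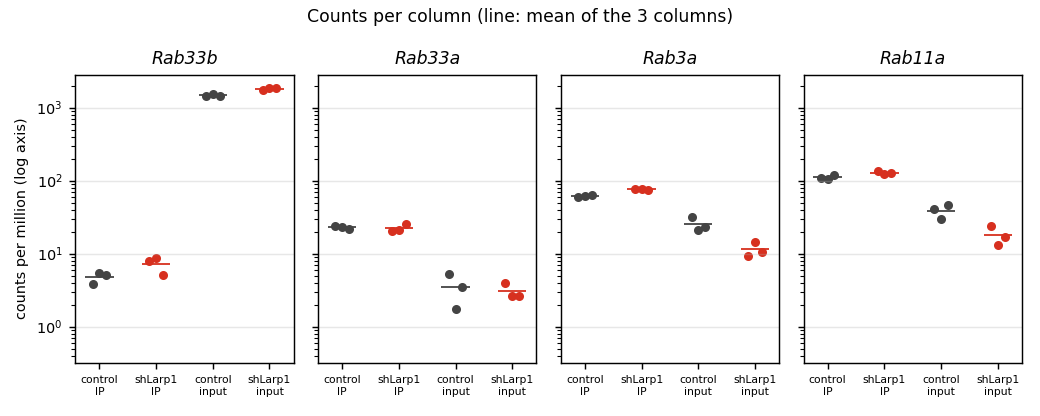
Counts scaled to library size (CPM) in each column for Rab33b, Rab33a, Rab3a and Rab11a in the 4 groups (log axis; points are columns, lines their mean, red is shLarp1). Rab33b is the only one of these 4 genes whose input columns lie above its IP columns, and Rab3a and Rab11a have their lowest columns in shLarp1 input.

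The fourth comparison was the interaction, the log2 change with shLarp1 in the IP minus that in input. No Rab passed the 1.5-fold rule (0 of 35), against 1.39% of 7581 genes called higher and 5.58% lower. The member median was 0.41, and 0.07 in all genes, with 27 of 35 members above the latter. Rab3a (1.08, 0.37 to 1.80) and Rab11a (0.95, 0.38 to 1.52) were the members whose whole interval lay above the median of all genes, 2 of 35 against 8.05% of all genes, and 0 lay wholly below it, against 13%. With total-count scaling, which called 396 genes higher and 139 lower, both passed 1.5-fold (1.44 and 1.31). Both rest on few input reads: without the first control input column Rab3a had 0.76, and without the second shLarp1 input column Rab11a had 0.62, with intervals that reached below 0 for both. For both genes the IP value was near 0 and the input value negative. The neuron markers given above had a lower sum in shLarp1 input, while their median log2 ratio equalled that of all tested genes. A link to the Rab values was not tested. Others with values over 1 were Rab35 (1.35, -0.54 to 3.25), Rab5a (1.13, -0.04 to 2.30), Rab18 (1.09), Rab2b (1.05) and Rab5b (1.03), and all these intervals included 0. At the low end stood Rab2a (-0.90, -1.94 to 0.15) and Rab22a (-0.56). Rab33b had -0.07 (-0.62 to 0.47), since its IP and input values were alike.

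**Figure D5:**
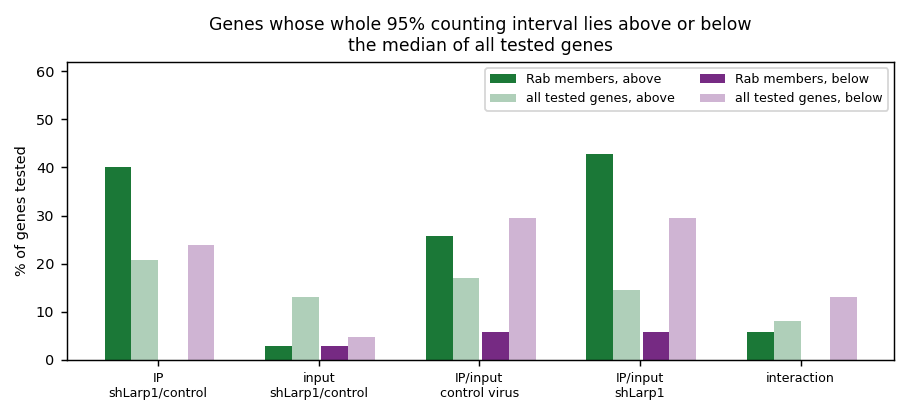
Percentage of the 35 tested Rab genes (dark bars) and of all tested genes (pale bars) whose whole 95% counting interval lay above (green) or below (purple) the median of all tested genes, in the 5 comparisons. In the IP 40.0% of the Rabs lay above and none below, and in input 2.86% lay on each side.

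The genes that load, extract and read out Rabs were taken from lists chosen with earlier results of these data known. Their calls stand beside 4.4% of all genes called lower in the IP, 1.01% lower in input, and 5.58% lower and 1.39% higher in the interaction. Of 7 tested genes for prenylation, escort and extraction, 0 passed in the IP (median -0.12), and in input Rabif, a nucleotide-release chaperone of Rabs, was lower (16 and 3 counts, -2.61, -5.03 to -0.81). The prenylated Rab acceptor Rabac1 had 1607 and 1823 IP counts (0.03). Of 27 tested exchange factors, 1 was called in the IP and 1 in input: Dennd2a was lower in the IP (1036 and 677 counts, -0.77) and Dennd4a lower in input (17 and 4 counts, -2.28), with medians of -0.07 in both. Rin1, a Rab5 exchange factor, Dennd5b and Ccz1, of the Rab7 exchange complex, were lower in the interaction (-0.94, -0.97 and -1.11), and Dennd4a was higher (2.24). Rin1, Dennd5b and Ccz1 lay low in IP over input, with the control virus (-2.57, -3.34 and -3.22) and with shLarp1 (-3.51, -4.31 and -4.33). Of 21 GTPase-activating proteins, 2 were called: Tbc1d24 (532 and 316 counts, -0.90) and Tbc1d10a (114 and 58, -1.13) were lower in the IP, and the median was -0.17. Tbc1d24 was also lower in the interaction (-1.23, -1.56 to -0.90). Tbc1d24 too lay low in IP over input (-1.99 with the control virus and -3.22 with shLarp1). Of 31 effectors, Eea1, the early endosome tether that binds Rab5, was lower in the IP (101 and 50 counts, -1.17, -1.69 to -0.66), and the median was 0.09. Rab11fip5, a Rab11 effector, had 550 and 694 IP counts (0.18).

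Other small GTPase families are given for comparison in the IP. The 20 tested ARF, ARL and SAR genes had a median of -0.12, with Arl4a higher (23 and 66 counts, 1.37) and Arl5c lower (6673 and 4674, -0.67). Arl5c lay low in IP over input (-2.52 with the control virus and -3.41 with shLarp1). The 18 RAS genes had a median of -0.15 with Rap2b higher (42 and 116, 1.31). The difference between the families was not tested.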

How the data were processed

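The authors deposited 1 table of estimated counts per gene, as whole numbers not scaled to depth. Tools named in the submitters' processing notes are minimap2 and Salmon, and the build is named GRCm39 or mm39. Tool versions, the annotation and whether counting was stranded were not given in the sources used here. Libraries came, per the labels' protocols, from a nanopore cDNA-PCR barcoding kit without molecular identifiers, so PCR copies are not independent molecules. Reads of close paralogues, overlapping genes (Rab2b with Tox4, Rab6a with Mrpl48) or antisense genes (Rab10 with Rab10os) may not be separable. Of 15391 identifiers, 13711 matched a symbol. No transcript lengths were used, so levels are not compared between genes.

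Columns were summed per group and scaled by TMM factors (edgeR 4.0.16, R 4.3.3) over 8773 genes past filterByExpr (minimum count 10). Log2 ratios have exact Clopper-Pearson intervals at 95%; the interaction adds 0.5 counts and uses a normal approximation. For medians, a group at 0 was set to 3 counts. Tests planned on the 12 columns, edgeR's quasi-likelihood test and DESeq2 1.42.0, serve as alternatives, since the columns were counted as 1 sample. The size rule was tested on simulated data. Members and lists were chosen with earlier results of these data known. Named members are those called in any comparison, the 15 with most IP counts and the 4 furthest from 0 on each side of each comparison (at least 50 counts); the other members are given by their counts. Sequences are RefSeq's (GRCm38.p6). Some genes of the lists are not reported here.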

Additional observations from a re-analysis of the deposited data

How the results depend on the processing

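In the IP, 0 Rab members were called under all 3 other scalings, at a looser and at a 2-fold limit and without any 1 column; without the filter 2 were (Rab43 and Rab7b). With the columns taken as replicates, edgeR's quasi-likelihood test and DESeq2 each called 3 (Rab15, Rab1b and Rab5a, all higher; over all genes 596 higher and 1838 lower by edgeR, 384 and 1497 by DESeq2, against 63 and 386 by size). In input the count was 0, and 1 (Rab33b) at a looser limit, with DESeq2 size factors, with upper-quartile factors and with the DESeq2 test, and 2 (also Rab11a) by edgeR; leaving out 1 column gave 0 to 1. Over all genes in input, the looser limit called 252 higher and 230 lower, and upper-quartile factors 117 and 43. The DESeq2 test called 754 and 156 there, and edgeR 464 and 315. In the interaction the member count was 0, and 2 (Rab11a and Rab3a) at a looser limit, with total counts and by edgeR. Over all genes these 3 settings called 289, 396 and 333 higher and 606, 139 and 642 lower, against 105 and 423. For IP over input the control count was 8, and 4 at 2-fold and with upper-quartile factors, 17 by edgeR and DESeq2, 26 with total counts and 5 to 8 without 1 column. Over all genes 970 were higher and 1095 lower, and 457 and 843 at 2-fold. Upper-quartile factors gave 394 and 1590 over all genes, and total counts 3336 and 652. By edgeR 3243 genes were higher and 1619 lower, and by DESeq2 3091 and 1494. The shLarp1 count was 17, and 8 at 2-fold, 7 with upper-quartile factors, 32 with total counts and 12 to 18 without 1 column. Over all genes 1275 were higher and 1147 lower with shLarp1, and 603 and 978 at 2-fold. There upper-quartile factors gave 497 and 1489, total counts 4981 and 752, and edgeR 3857 and 1510. The fit with the replicate number as a block called 3, 2, 17, 24 and 2 members in the IP, input, both IP over input comparisons and the interaction, the same counts as edgeR without the block; the numbers name no shared culture. Without Rab33b the summed Rab log2 ratio turned from 0.41 to -0.36 in input, from -1.65 to 0.84 and from -1.97 to 1.29 for IP over input (control and shLarp1), and from -0.32 to 0.45 in the interaction. With total counts 105 genes were higher and 205 lower in the IP, and with DESeq2 size factors 181 and 35 in input (13 and 77 with TMM). Over all alternatives, the values of single members, medians and sums kept their call or stayed within counting error 2270 times, lost a call 40 times, gained one 37 times, moved beyond counting error 15 times and turned sign 4 times (the sums above). Values near 0 that were not called, such as Rab6a in the IP, could change sign within counting error. Input depth limits every single Rab except Rab33b.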
